A study of Mus musculus with 12 samples.

Results

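Transcripts of the T cell receptor loci and of the CD3 complex were followed in mouse bone marrow with and without E4bp4, the transcription factor whose gene is now called Nfil3. The set was made of all transcript clusters of the array annotated with a variable (V), joining (J) or constant (C) segment of the alpha, beta, gamma or delta receptor locus, or with Cd3d, Cd3e, Cd3g, Cd247 or Ptcra. This rule found 44 of 34760 transcript clusters, each a group of probes read as 1 level. By the start of their symbols they comprised 32 alpha, 2 beta, 4 gamma and 1 delta cluster, and 1 cluster each for the 5 named genes. Together they named 32 distinct genes, 29 clusters named several segments that cannot be separated, and 0 clusters named a J or C segment, so every receptor value is that of V segments. Of the 44, 31 reached the 20th percentile of at least 1 array and were tested, and the other 13 did not.

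The arrays held RNA of hindleg marrow from 6 E4bp4-/- and 6 E4bp4+/+ mice, 1 mouse per array. In both genotypes, cells with CD2, NK1.1, CD11b, B220, Ter119 or GR1 on their surface had been removed with magnets, which leaves a fraction rich in stem and progenitor cells. CD2 is carried by T cells, and CD3 was not among the removed antigens. Strain, age and sex, the way the allele was made and the deleted part of the gene are not given in the sources used here. The study compared the genotypes to find candidate genes under E4bp4 control in marrow. All levels are on the log2 scale, all differences are E4bp4-/- minus E4bp4+/+, and the number of arrays limits their precision.

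A T cell builds its receptor either from an alpha and a beta chain or from a gamma and a delta chain, and each chain gene is assembled from V and J segments, with D segments for beta and delta, by the RAG recombinase. Segments can also be transcribed before they are joined, and the array cannot tell such transcripts from those of a joined gene. The CD3 gamma, delta and epsilon chains and the zeta chain (Cd247) carry the signal of either receptor into the cell, and pre-T alpha (Ptcra) pairs with the beta chain in thymocytes that have no alpha chain yet. E4bp4 is known for its part in the development of natural killer cells and other innate lymphoid cells.

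The targeted gene, Nfil3, had levels of 6.34, 6.38 and 6.92 (lowest, median and highest) on the E4bp4-/- arrays, against 6.94, 7.11 and 7.67 on the E4bp4+/+ arrays. The genotypes did not overlap for Nfil3, the difference was -0.68 ± 0.13 (SE), and the two-sided exact permutation p of 0.00216 is the smallest that 6 arrays against 6 allow. In limma, 0 of the 29541 clusters tested passed a Benjamini-Hochberg adjusted p of 0.05, the smallest adjusted p being 0.109, while 4391 had an unadjusted p under 0.05. The median difference over all clusters tested was 0.02. Some arrays stood apart. On E4bp4-/- replicate 1, Xist, the RNA of the silenced X chromosome, was at 6.08, against at least 12.10 on every other array. The same array had the highest level of the neutrophil granule gene Ngp, 12.01. On the arrays numbered 2, Trgv1, Gata3 and Il2ra each lay toward the other genotype. For these genes replicate 2 was the highest E4bp4-/- array and the lowest E4bp4+/+ array. Nfil3 did not overlap there, but E4bp4-/- replicate 2, at 6.92, was its highest E4bp4-/- array, just below the lowest E4bp4+/+ level of 6.94. On E4bp4+/+ replicate 2 Nfil3 was at 7.18, within the range of the other E4bp4+/+ arrays. The gamma values, the counts of called members and list genes that these arrays change, and some of the single values are given with and without them.

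The tested gamma clusters and most of the other tested members differed in direction. All 3 tested gamma clusters were lower in E4bp4-/- marrow, with a median difference of -0.90 and a range of -1.34 to -0.88. Of the 23 tested alpha and beta clusters, of which 1 was beta, 20 were higher and 3 lower, with a median of 0.08 and a range of -0.06 to 0.24. Over all clusters tested, 55.9% were higher by any amount, and array medians averaged 6.57 in E4bp4-/- and 6.53 in E4bp4+/+ marrow. All 5 clusters of the CD3 complex and Ptcra were higher, by 0.02 to 0.19, with a median of 0.08; Cd247 alone turned lower when the arrays were rescaled. At an unadjusted p under 0.05, 3 of the 31 tested members were lower (9.68%), where 6.39% of all clusters tested were. At the same threshold 10 members were higher (32.3%), where 8.47% of all clusters were, and 18 passed in neither direction. None of the 31 passed the adjusted threshold, which 0% of all clusters passed. The 3 lower members were the gamma clusters, and the 10 higher ones were 8 alpha clusters, Cd3e and Cd3g. The medians of the classes were not tested against each other.

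**Figure D1:**
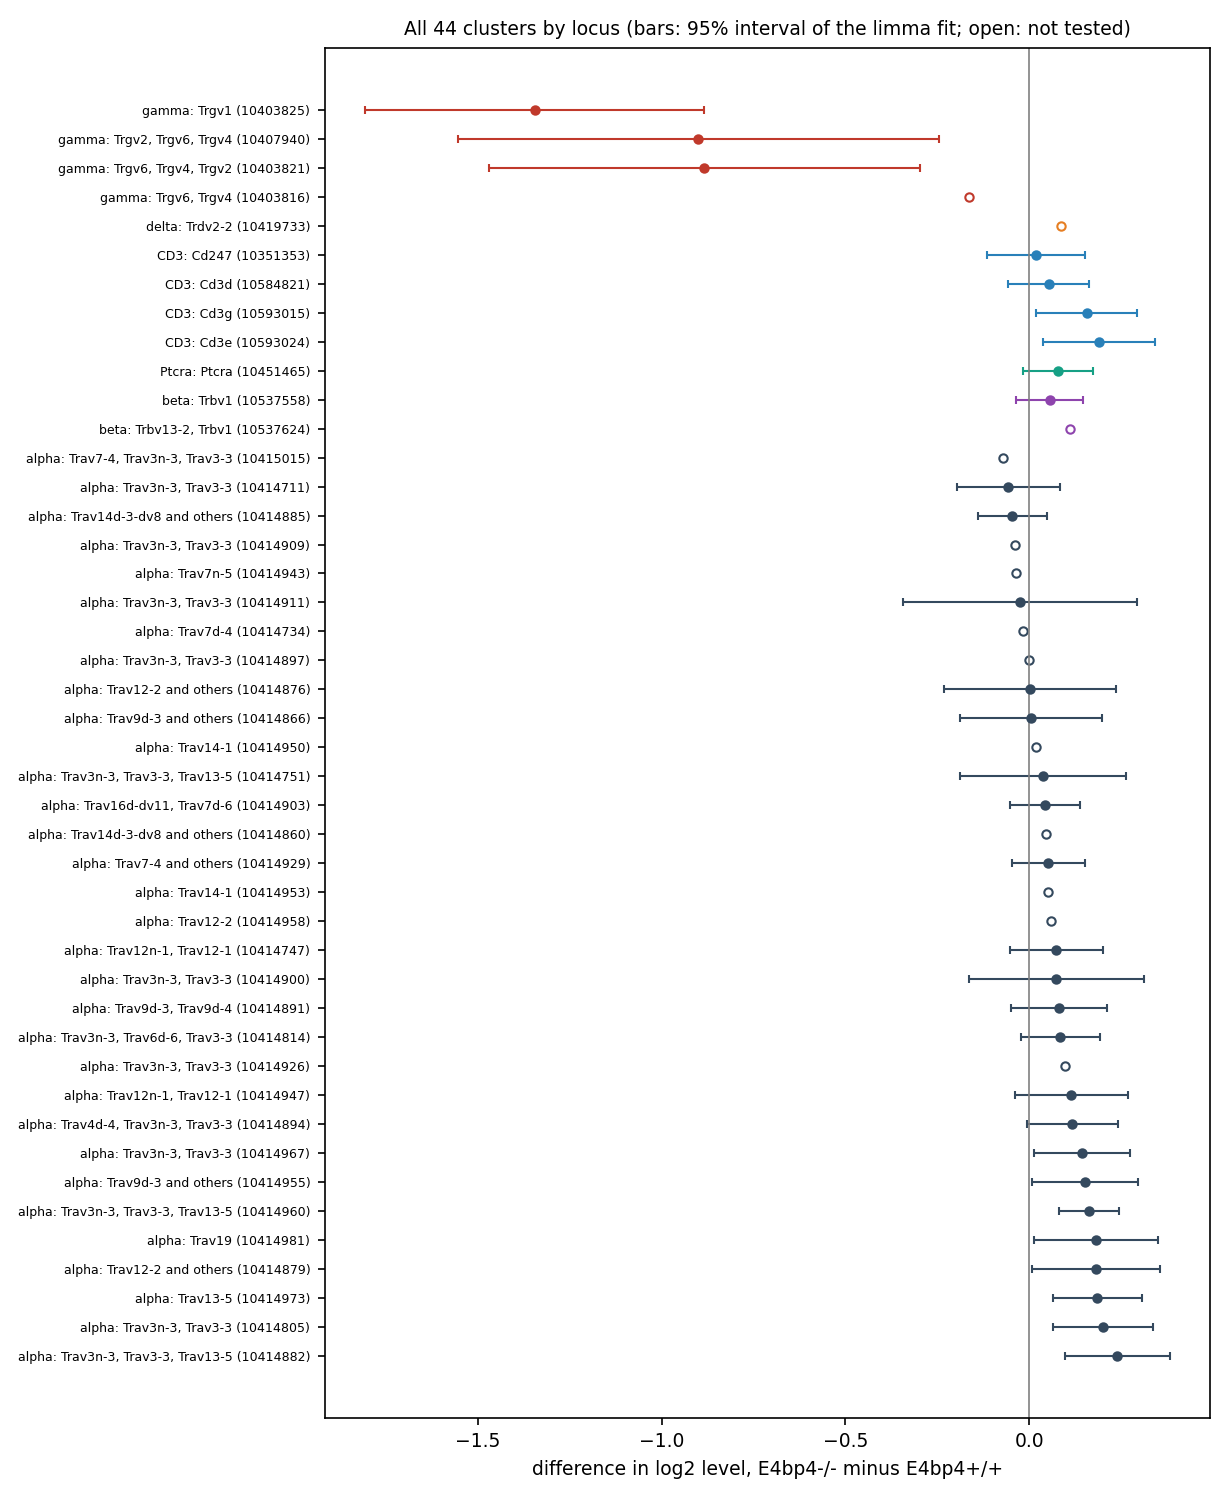
Difference in log2 level (E4bp4-/- minus E4bp4+/+) of each of the 44 clusters, grouped by locus; bars are 95% confidence intervals from limma, and open points were not tested. The 3 tested gamma clusters lie between -1.34 and -0.88, and the 28 tested clusters of the other loci and genes lie between -0.06 and 0.24.

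Trgv1 (transcript cluster 10403825), the gamma V segment that the array reads alone, had levels of 4.89, 5.04 and 5.76 on the E4bp4-/- arrays, against 5.59, 6.64 and 6.93 on the E4bp4+/+ arrays. The genotypes overlapped through a single pair of arrays, E4bp4-/- replicate 2 at 5.76 and E4bp4+/+ replicate 2 at 5.59. The other 5 E4bp4-/- arrays lay at or below 5.14 and the other 5 E4bp4+/+ arrays at or above 6.35. Means were 5.14 ± 0.32 in E4bp4-/- and 6.49 ± 0.48 in E4bp4+/+ marrow (SD, n = 6 each), a difference of -1.34 ± 0.21 (SE) with a 95% interval of -1.81 to -0.88. The two-sided exact permutation p was 0.00433 and the adjusted p of limma 0.109. E4bp4-/- replicate 4 lay below the 20th percentile of its array, where a level may be mostly background. Leaving out E4bp4+/+ replicate 2 gave -1.52 and an adjusted p of 0.0178 in limma, and leaving out 1 array at a time gave adjusted p-values between that and 0.268. Without both arrays numbered 2, a choice made once the values were known, the difference was -1.65 and the adjusted p 0.00031. Without E4bp4-/- replicate 1 it was -1.31 with an adjusted p of 0.153. In RNA of a mixed cell fraction, fewer cells that carry a transcript and less of it per cell cannot be told apart.

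A pair of clusters read Trgv2, Trgv4 and Trgv6 jointly, and they shared 9 annotated sequences of their 9 and 10, so they are not independent measurements. Cluster 10403821 had levels of 7.22, 8.09 and 8.79 on the E4bp4-/- arrays, against 8.50, 9.09 and 9.22 on the E4bp4+/+ arrays. The E4bp4-/- arrays were spread: replicates 1, 5 and 6 lay below every E4bp4+/+ array, between 7.22 and 7.68, while replicate 4 at 8.49 lay just below them and replicates 2 and 3 within their range. Means were 8.07 ± 0.68 in E4bp4-/- and 8.95 ± 0.28 in E4bp4+/+ marrow (SD, n = 6 each), a difference of -0.88 ± 0.27 (SE), with an exact permutation p of 0.013 and an adjusted p of 0.214 in limma. Cluster 10407940 had levels of 6.05, 6.66 and 7.52 on the E4bp4-/- arrays, against 7.05, 7.75 and 8.14 on the E4bp4+/+ arrays. The same replicates 1, 5 and 6 of E4bp4-/- were below every E4bp4+/+ array, and the other 3 were within their range. The difference for 10407940 was -0.90 ± 0.30 (SE), with an exact permutation p of 0.0303 and an adjusted p of 0.227 in limma. In fold terms the level was 1.84 times higher in E4bp4+/+ for 10403821 and 1.87 times for 10407940. The E4bp4-/- arrays thus took another order here than for Trgv1, where replicates 3 and 4 were at 5.01 and 4.89, near replicates 1, 5 and 6. Without E4bp4-/- replicate 1 the differences were -0.71 for 10403821 and -0.76 for 10407940, both with an unadjusted p under 0.05 in limma, and without both arrays numbered 2 they were -1.10 and -1.18.

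**Figure D2:**
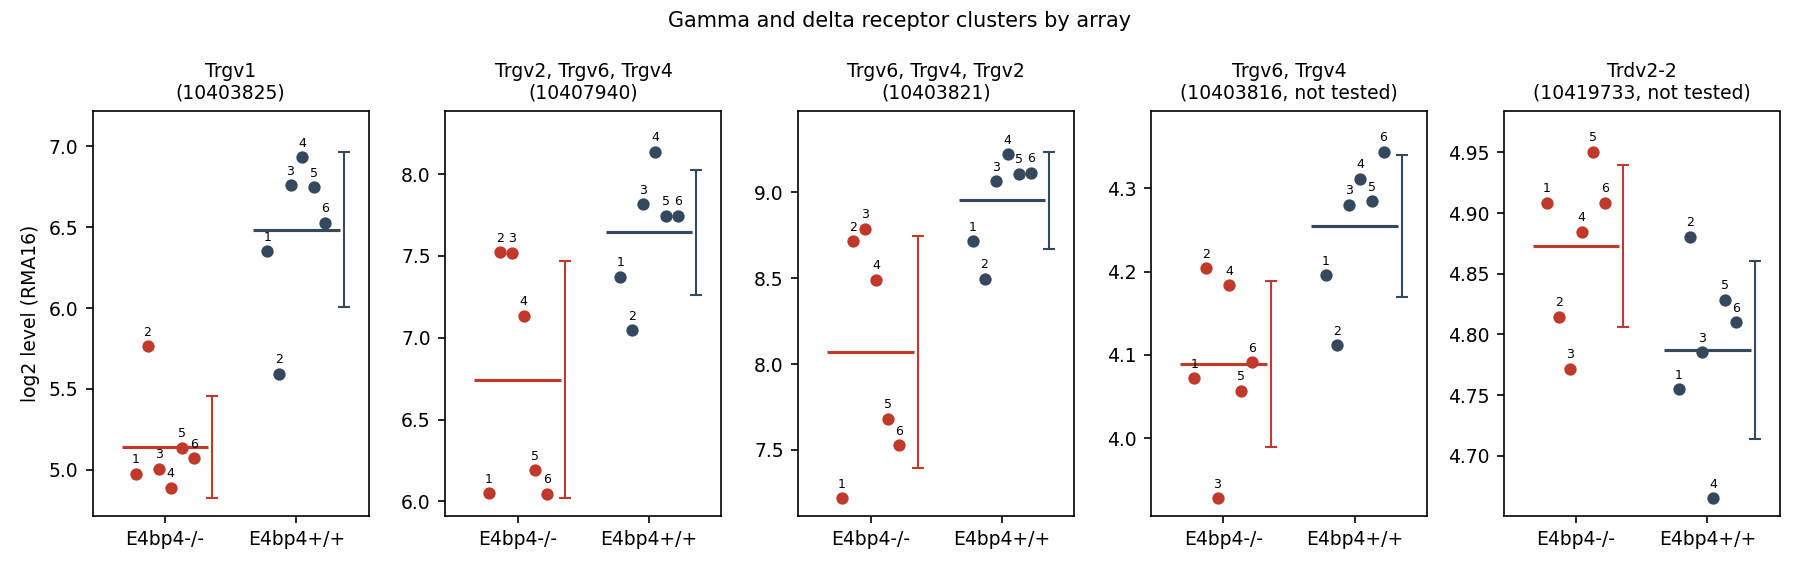
Log2 level of the 4 gamma clusters and the delta cluster on each array, numbered by replicate, with E4bp4-/- in red on the left and E4bp4+/+ in blue on the right; the line is the mean and the bar 1 SD. For Trgv1 only the arrays numbered 2 cross, and for the paired Trgv2, Trgv4 and Trgv6 clusters E4bp4-/- replicates 1, 5 and 6 lie below all E4bp4+/+ arrays.

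The fourth gamma cluster, 10403816, names Trgv6 and Trgv4 and lay below the 20th percentile on all 12 arrays, so it was not tested in limma. It averaged 4.09 ± 0.10 in E4bp4-/- and 4.25 ± 0.09 in E4bp4+/+ marrow (SD, n = 6 each), a difference of -0.17 at a level where signal and background cannot be told apart. By symbol the delta locus had 1 cluster, Trdv2-2, also below the 20th percentile on all 12 arrays. Clusters 10414860, 10414885 and 10414903 name Trav14d-3-dv8 or Trav16d-dv11, labelled for both alpha and delta, beside other Trav segments. They were counted as alpha by the start of the symbol. They differed by 0.05, -0.05 and 0.04, and 10414860 was not tested. Trdv2-2 averaged 4.87 ± 0.07 in E4bp4-/- and 4.79 ± 0.07 in E4bp4+/+ marrow (SD, n = 6 each), a difference of 0.09 with an exact permutation p of 0.0584. A lower level of the delta locus was therefore neither seen nor measurable with this segment, and gamma and delta chains could not be compared.

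In the alpha locus the segments that form the variable part of the alpha chain were read by 32 clusters, 19 of which name Trav3-3 beside other segments, so many of these values share sequence and are not independent. Cluster 10414960 (Trav3n-3, Trav3-3 and Trav13-5) had levels of 7.60, 7.66 and 7.70 on the E4bp4-/- arrays, against 7.41, 7.49 and 7.59 on the E4bp4+/+ arrays. It was the only tested member whose genotypes did not overlap, as 0.619% of all clusters did in the higher direction and 0.65% in the lower. Its difference was 0.16 ± 0.04 (SE), with an exact permutation p of 0.00216 and an adjusted p of 0.16 in limma. Cluster 10414882, with the same 3 segments, averaged 8.36 ± 0.09 in E4bp4-/- and 8.13 ± 0.13 in E4bp4+/+ marrow (SD, n = 6 each), and 4 of its 6 E4bp4-/- arrays lay above all E4bp4+/+ arrays. The difference for 10414882, 0.24 ± 0.07 (SE), was the top of the alpha range, with an adjusted p of 0.188 in limma.

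Trav13-5 also has a cluster of its own, 10414973, with levels of 7.15, 7.25 and 7.35 on the E4bp4-/- arrays, against 6.91, 7.06 and 7.21 on the E4bp4+/+ arrays. Its difference was 0.18 ± 0.06 (SE), with 4 E4bp4-/- arrays above all E4bp4+/+ arrays and an adjusted p of 0.214 in limma. Cluster 10414805 (Trav3n-3 and Trav3-3) differed by 0.20 ± 0.06 (SE), with an adjusted p of 0.215 in limma. The remaining alpha clusters at an unadjusted p under 0.05 were 10414967 (Trav3n-3 and Trav3-3) at 0.14, Trav19 at 0.18, 10414955 (Trav9d-3, Trav3n-3, Trav9d-4 and Trav3-3) at 0.15 and 10414879 (segments of the Trav12 family) at 0.18. All 4 had overlapping genotypes and adjusted p-values between 0.304 and 0.323 in limma. Next in order of p, 10414894 (Trav4d-4, Trav3n-3 and Trav3-3) differed by 0.12 and 10414814 (Trav3n-3, Trav6d-6 and Trav3-3) by 0.08. Of the 8 higher clusters 5 name Trav3-3, as do 14 of the 22 tested in this locus.

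The number of higher members depended on the scaling. With each array centred on its median, the higher members numbered 4 in place of 10, all of them alpha clusters (10414960, 10414882, 10414973 and 10414805), against 3.53% of all clusters. Centring made 12.6% of all clusters lower, and both shares also apply to the gene lists below. With quantile normalization the higher members numbered 6, those 4 alpha clusters with Cd3e and Cd3g, against 5.8% of all clusters. The share of higher among all clusters with an unadjusted p under 0.05 was 57% as deposited, 46.9% after quantile normalization and 22% after centring. The median of the alpha and beta clusters stayed above 0, at 0.04 under either scaling, and the 3 gamma clusters remained at an unadjusted p under 0.05, with medians of -0.92 and -0.94. Leaving out E4bp4-/- replicate 1, 2 or 3 or E4bp4+/+ replicate 1 or 4, 1 at a time, also brought the higher members to 6. Without both arrays numbered 2 they numbered 9.

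The beta locus was read by 2 clusters. Trbv1 averaged 6.90 ± 0.07 in E4bp4-/- and 6.84 ± 0.05 in E4bp4+/+ marrow (SD, n = 6 each), a difference of 0.06 with a 95% interval of -0.04 to 0.15 and an exact permutation p of 0.156. The cluster shared by Trbv13-2 and Trbv1 stayed under the 20th percentile and was not tested. The 10 untested alpha clusters differed by -0.07 to 0.10.

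Among the signalling chains, Cd3e, the epsilon chain shared by both receptor kinds, had levels of 7.08, 7.24 and 7.43 on the E4bp4-/- arrays, against 6.91, 7.08 and 7.21 on the E4bp4+/+ arrays. Replicates 1, 4 and 6 of E4bp4-/- lay above every E4bp4+/+ array and the other 3 overlapped. Cd3e averaged 7.25 ± 0.13 in E4bp4-/- and 7.06 ± 0.12 in E4bp4+/+ marrow (SD, n = 6 each), a difference of 0.19 ± 0.07 (SE) with an exact permutation p of 0.0303 and an adjusted p of 0.258 in limma. Cd3g, the CD3 gamma chain and no product of the gamma receptor locus, had levels of 4.86, 5.06 and 5.24 on the E4bp4-/- arrays, against 4.75, 4.91 and 5.03 on the E4bp4+/+ arrays. Its genotypes overlapped, and the difference was 0.16 ± 0.06 (SE) with an exact permutation p of 0.039 and an adjusted p of 0.291 in limma. Cd3g reached the 20th percentile on only 6 arrays. Its E4bp4+/+ median of 4.91 lay below that percentile of every array, 4.93 to 4.99, where a level may be mostly background. After centring on array medians Cd3e differed by 0.15 and Cd3g by 0.12, with unadjusted p-values of 0.0504 and 0.103 in limma. Cd3g also lost its unadjusted call when a single array was left out, its p then reaching up to 0.0676 in limma.

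Cd3d, the delta chain of CD3, averaged 5.11 ± 0.09 in E4bp4-/- and 5.05 ± 0.07 in E4bp4+/+ marrow (SD, n = 6 each), and its difference of 0.05 had a 95% interval of -0.06 to 0.16. Cd247, the zeta chain, averaged 6.04 ± 0.09 in E4bp4-/- and 6.03 ± 0.12 in E4bp4+/+ marrow (SD, n = 6 each). The difference of Cd247 was 0.02, with an interval of -0.11 to 0.15, and became -0.02 under centring and under quantile normalization. Ptcra averaged 6.45 ± 0.05 in E4bp4-/- and 6.37 ± 0.08 in E4bp4+/+ marrow (SD, n = 6 each), a difference of 0.08 ± 0.04 (SE) with an exact permutation p of 0.0758. For these 3 genes the genotypes overlapped. The 95% interval of Ptcra was -0.02 to 0.17. Cd3d lay near the 20th percentile of the arrays, 4.93 to 4.99, where a level may be mostly background. Cd247 and Ptcra lay higher, but a decrease of the size seen for Trgv1 would bring them near or below that percentile too. Whether these 3 genes could show such a decrease was not tested.

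**Figure D3:**
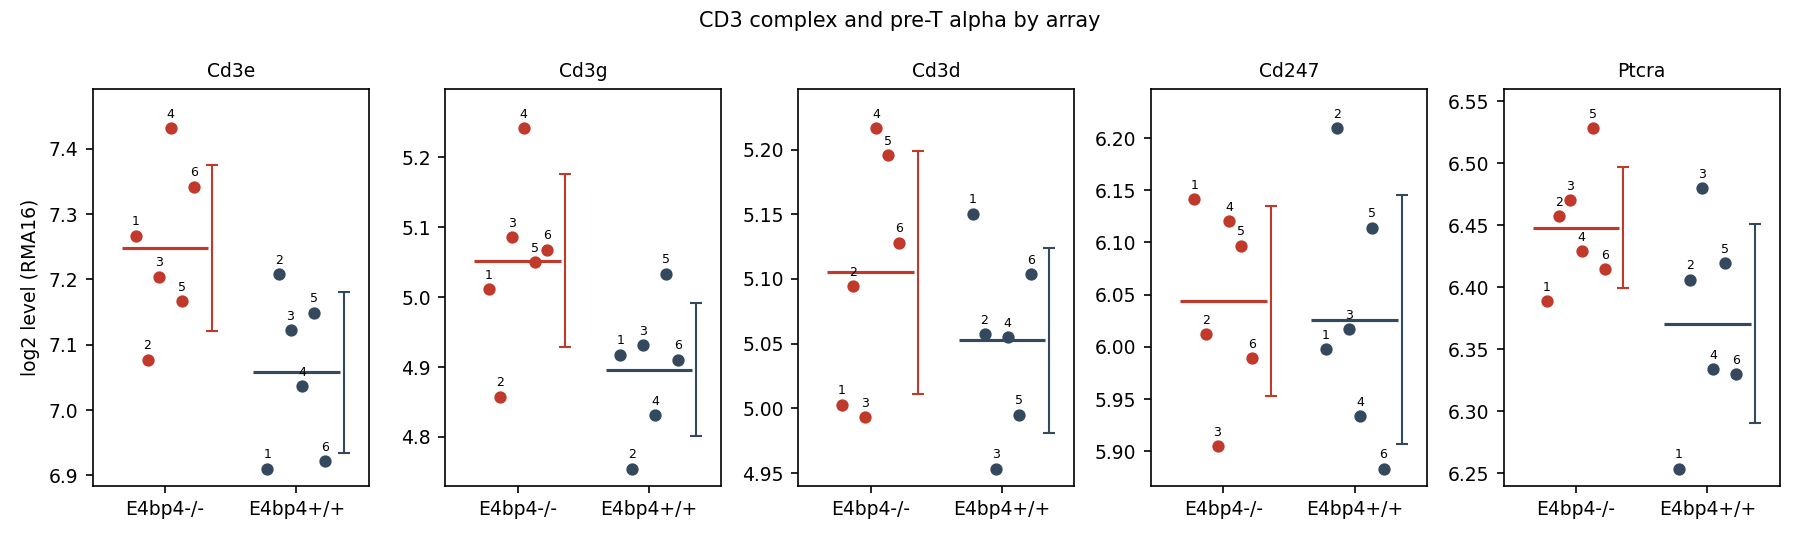
Log2 level of the 4 CD3 complex genes and Ptcra on each array, numbered by replicate, with E4bp4-/- in red on the left and E4bp4+/+ in blue on the right; the line is the mean, the bar 1 SD, and each panel has its own range. All 5 pairs of genotypes overlap, and the mean differences run from 0.02 for Cd247 to 0.19 for Cd3e.

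The promoters of the 3 neighbouring CD3 genes are shown because Cd3e and Cd3g were among the 10 higher members and Cd3d lies beside Cd3g, with CANNTG, the E-box bound by E proteins in lymphocytes, in capitals. They are taken from RefSeq, build GRCm38.p6, run from 250 bases before to 50 after the start, and are written 5′ to 3′ on the gene's strand. The window of Cd3e is chr9:45009562-45009861 (minus strand), that of Cd3g chr9:44980382-44980681 (minus strand) and that of Cd3d chr9:44981536-44981835 (plus strand).
Cd3e: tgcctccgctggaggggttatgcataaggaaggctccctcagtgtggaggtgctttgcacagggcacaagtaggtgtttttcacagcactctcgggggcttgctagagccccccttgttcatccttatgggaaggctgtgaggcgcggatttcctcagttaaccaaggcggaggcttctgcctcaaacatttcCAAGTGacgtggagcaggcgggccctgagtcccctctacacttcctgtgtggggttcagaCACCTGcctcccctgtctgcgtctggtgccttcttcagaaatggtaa
Cd3g: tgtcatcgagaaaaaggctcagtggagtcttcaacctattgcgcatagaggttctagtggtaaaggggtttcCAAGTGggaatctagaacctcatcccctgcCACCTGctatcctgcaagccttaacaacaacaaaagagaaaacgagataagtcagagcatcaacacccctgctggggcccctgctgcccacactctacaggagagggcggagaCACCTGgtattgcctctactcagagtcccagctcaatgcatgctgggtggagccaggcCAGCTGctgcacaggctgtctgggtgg
Cd3d: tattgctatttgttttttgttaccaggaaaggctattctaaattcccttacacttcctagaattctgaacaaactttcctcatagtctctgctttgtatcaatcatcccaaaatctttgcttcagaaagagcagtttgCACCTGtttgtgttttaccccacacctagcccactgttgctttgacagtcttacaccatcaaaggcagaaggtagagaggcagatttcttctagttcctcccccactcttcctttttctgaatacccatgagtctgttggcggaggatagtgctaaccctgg

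The Cd3g and Cd3d windows lie next to each other on opposite strands. Cd3g holds 4 E-boxes, Cd3e 2 and Cd3d 1, where 72.3% of 32851 such windows hold at least 1 and 39.6% hold as many as Cd3e or more. CANNTG reads the same on both strands and overlaps neither E4BP4 sequence searched. The E4BP4 sequences TTATGTAA and TTACGTAA, searched on both strands, were in 0 of the 5 windows of Cd3d, Cd3e, Cd3g, Cd247 and Ptcra and in 347 of all windows (1.06%). A match or its lack describes only these letters in these windows. Promoter windows of receptor segments were not analysed here.

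The other genes of receptor signalling held no lower call. Of 34 listed genes 29 were tested, with 4 higher and 0 lower at an unadjusted p under 0.05, where 8.47% of all clusters were higher and 6.39% lower, and a median of 0.09. Lat, the adaptor that links the receptor to downstream enzymes, ran from 8.73 to 9.25 on the E4bp4-/- arrays, against 8.44 to 8.94 on the E4bp4+/+ arrays, with overlap and a difference of 0.34 ± 0.10 (SE) with an adjusted p of 0.207 in limma. Nfatc1, a transcription factor switched on by calcium, differed by 0.22, Ptprcap, which associates with CD45, by 0.17, and the costimulatory receptor Cd27 by 0.25. Without E4bp4-/- replicate 1 only Lat was still called, and Nfatc1, Ptprcap and Cd27 differed by 0.16, 0.12 and 0.19. After centring 1 gene of the list was called, and without both arrays numbered 2 there were 2. Zap70, the kinase that binds phosphorylated CD3 and zeta chains, differed by 0.03 and was at -0.01 after centring and -0.0021 after quantile normalization. Lck has no cluster of its own on the array.

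The enzymes that join receptor segments gave no call in either direction. Of 13 listed genes 11 were tested, and 0 were higher and 0 lower at an unadjusted p under 0.05 in limma. Over all clusters 8.47% were higher and 6.39% lower. Centring gave 2 lower, where 12.6% of all clusters were lower. Leaving out both arrays numbered 2 gave 1 lower, where 5.89% of all clusters were. Rag1, a subunit of the recombinase, differed by -0.10 ± 0.06 (SE) and by -0.06 without E4bp4-/- replicate 4, while Rag2, the other subunit, stayed under the 20th percentile. Dntt, which adds bases at the joints, differed by 0.08 and was at -0.08 without E4bp4-/- replicate 1. Atm and Lig4, of DNA break signalling and sealing, differed by 0.15 and 0.12, and by 0.09 and 0.05 without E4bp4+/+ replicate 1. Hmgb1, a cofactor of the recombinase, differed by -0.12 and by -0.07 without E4bp4+/+ replicate 3. Xrcc5, which binds DNA ends, differed by -0.16 and by -0.07 without E4bp4-/- replicate 1.

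Of 23 T lineage transcription factors, 22 were tested, with 1 lower and 2 higher, where 6.39% of all clusters were lower and 8.47% higher. Their median was 0.02, and -0.02 after centring. The lower one was Gata3, needed for T cells and type 2 innate lymphoid cells. The higher ones were Runx3 by 0.13 and Myb by 0.11, and Myb was not called without E4bp4-/- replicate 1, at 0.09. Notch1, the receptor that starts T cell commitment, differed by 0.29 without passing, and by 0.15 without that array. Bcl11b, a T cell commitment factor, differed by -0.01 and was at 0.02 without E4bp4+/+ replicate 1. Without both arrays numbered 2, 2 factors of the list were lower and 1 higher, where 5.89% of all clusters were lower and 8.65% higher.

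Of 18 genes listed for gamma delta T cells, 14 were tested, with 4 higher and 0 lower (8.47% and 6.39% of all clusters) and a median of 0.07. The 4 were Cd163l1 by 0.18, Sox13 by 0.13, Sox4 by 0.14 and Ccr6 by 0.13, of which Ccr6 reached the 20th percentile on 4 of 12 arrays and had an unadjusted p of 0.0496 in limma. Without E4bp4-/- replicate 1 Ccr6 was not called, at 0.10, and after centring 1 gene of the list was. Without both arrays numbered 2 the list had 3 higher and 1 lower (8.65% and 5.89% of all clusters). The mean level of the list ran from 6.54 to 6.64 on the E4bp4-/- arrays, against 6.50 to 6.57 on the E4bp4+/+ arrays. Markers of mature T cells had 1 lower (Icos) and 1 higher (Lat) of 18 tested, and list means of 6.00 to 6.09 in E4bp4-/-, against 5.98 to 6.05 in E4bp4+/+. Without E4bp4-/- replicate 1 they had 1 lower and 2 higher of 17 tested (5.14% and 8.42% of all clusters). Without both arrays numbered 2 they had 2 lower and 2 higher (5.89% and 8.65%). Trat1, Themis and Cd40lg of that list were below the 20th percentile on all 12 arrays. Ctla4 and Cd5 differed by 0.10 and 0.09. Cells carrying CD2, a surface protein of T cells, had been removed in both genotypes, and the part of any remaining T cells in the receptor values was not tested.

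Some genes of type 2 innate lymphoid cells were, like Trgv1, lower in E4bp4-/- marrow. Whether they followed Trgv1 array by array was not tested. Of 20 listed genes 16 were tested, with 4 lower and 1 higher (Kit, by 0.19), where 6.39% of all clusters were lower and 8.47% higher, and a median of -0.07. The counts were also 4 and 1 without E4bp4-/- replicate 1, after centring and after quantile normalization, and 5 and 2 without both arrays numbered 2. The 4 lower ones were Gata3, Icos, Il2ra and Id2, and apart from Kit the other tested markers of the list passed in neither direction. By direction alone 11 of the 16 were lower and 5 higher. Gata3 had levels of 6.16, 6.42 and 6.97 on the E4bp4-/- arrays, against 6.76, 7.21 and 7.31 on the E4bp4+/+ arrays. E4bp4-/- replicate 2 lay above E4bp4+/+ replicates 2 and 6 and no other arrays crossed. The difference was -0.64 ± 0.13 (SE) with an exact permutation p of 0.00649 and an adjusted p of 0.148 in limma. Without both arrays numbered 2 Gata3 differed by -0.81 with an adjusted p of 0.0221 in limma. These arrays were set apart by the values of Gata3 itself, among others, so this p-value adds no support.

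Il2ra, the alpha chain of the interleukin-2 receptor, had levels of 5.15, 5.40 and 5.98 on the E4bp4-/- arrays, against 5.68, 6.22 and 6.57 on the E4bp4+/+ arrays, and only the arrays numbered 2 crossed. Its difference was -0.73 ± 0.16 (SE) with an adjusted p of 0.148 in limma. Without both arrays numbered 2, again a choice made once the values were known, it was -0.93 with an adjusted p of 0.0505 in limma. Icos, a costimulatory receptor, did not overlap, with a highest E4bp4-/- level of 6.19 against a lowest E4bp4+/+ level of 6.28, and differed by -0.37 ± 0.06 (SE) with an adjusted p of 0.139 in limma. Id2, an inhibitor of E proteins, differed by -0.77 ± 0.28 (SE), and its E4bp4-/- replicates 1 and 2, at 9.19 and 8.72, lay within the E4bp4+/+ range. Id2 differed by -0.99 without the first of them. Il5 and Klrg1, further markers of these cells, were below the 20th percentile on all 12 arrays. The list means ran from 6.49 to 6.77 in E4bp4-/-, against 6.61 to 6.88 in E4bp4+/+, and their part in the Trgv1 difference was not tested.

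**Figure D4:**
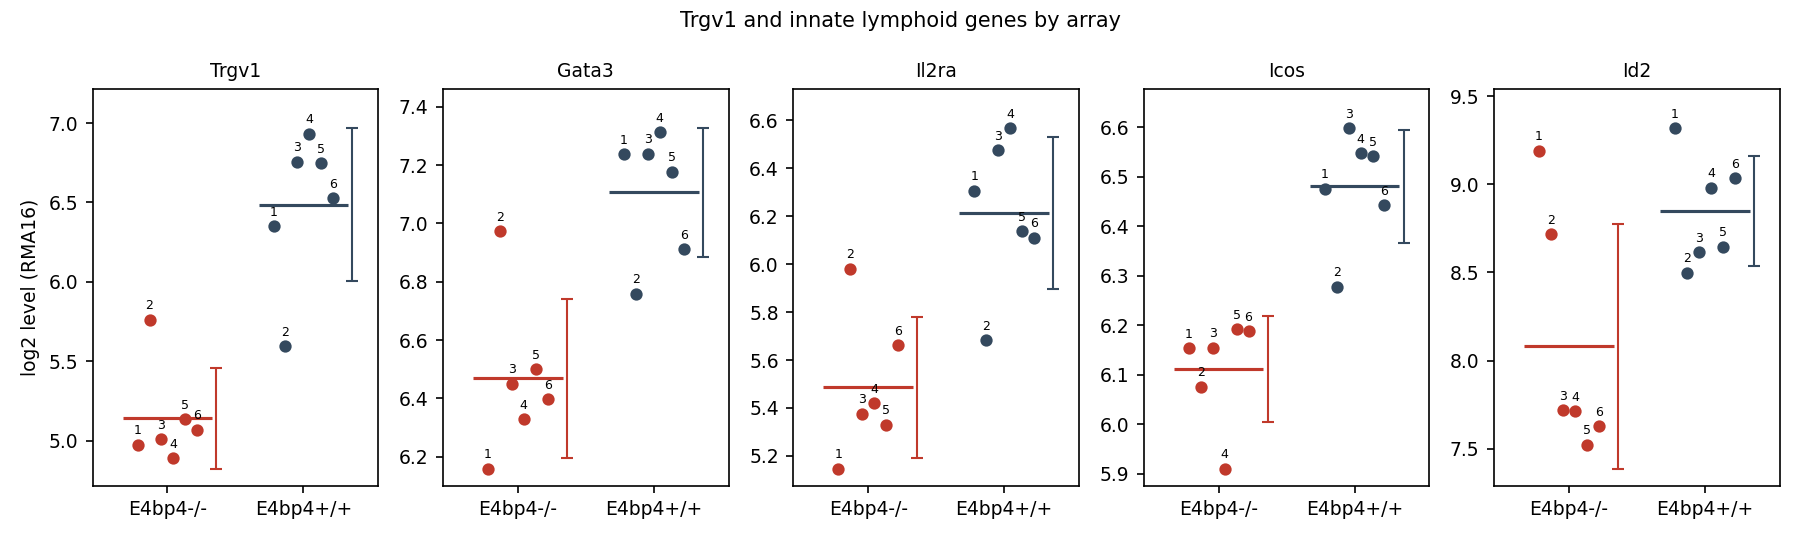
Log2 level of Trgv1 and of 4 genes of innate lymphoid cells on each array, numbered by replicate, with E4bp4-/- in red on the left and E4bp4+/+ in blue on the right; the line is the mean, the bar 1 SD, and each panel has its own range. For Trgv1, Gata3 and Il2ra replicate 2 is the highest E4bp4-/- and the lowest E4bp4+/+ array, Icos does not overlap, and Id2 overlaps through E4bp4-/- replicates 1 and 2.

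Other cells that the fraction could hold were read by list, again beside 8.47% of all clusters higher and 6.39% lower. Natural killer cell genes had 2 lower and 1 higher of 13 tested with a median of 0.02, and Klrb1c, Klre1, Klra8 and Gzma were below the 20th percentile on all 12 arrays. Without E4bp4-/- replicate 1, 1 natural killer cell gene was lower, where 5.14% of all clusters were. B cell precursor genes had 5 higher and 0 lower of 13 tested with a median of 0.19, and 4 higher after centring and 3 without both arrays numbered 2. Their median was 0.11 without E4bp4-/- replicate 1.

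Early lymphoid progenitor genes had 4 higher and 1 lower of 12 with a median of 0.17, and 2 higher and 2 lower after centring. Without E4bp4-/- replicate 1 the median was 0.08, with 3 higher and 1 lower (8.42% and 5.14% of all clusters). Without both arrays numbered 2 there were 3 higher and 3 lower (8.65% and 5.89%). Il12a differed by 0.38, Flt3 by 0.36 and Lax1 by 0.21, while Ccr9, a homing receptor of thymus-seeding cells, differed by -0.51 ± 0.14 (SE) with an adjusted p of 0.184 in limma. As for Trgv1, replicate 2 was the highest E4bp4-/- and the lowest E4bp4+/+ array for Ccr9, and without both arrays numbered 2 it differed by -0.69.

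Neutrophil granule genes had 0 calls of 12 with a median of 0.35. Their mean level was 10.76 on E4bp4-/- replicate 1, against 8.35 to 9.45 on the E4bp4+/+ arrays, and without that array the median was 0.06 with 2 higher. Of genes for progenitor identity, 5 of 8 tested were higher. After centring 2 were, where 3.53% of all clusters were higher. Without E4bp4-/- replicate 1 (8.42% of all clusters) or without both arrays numbered 2 (8.65%) 3 were. Of the removed antigens 0 of 4 were called, with Klrb1c, which encodes NK1.1, below the 20th percentile on all 12 arrays. The part of these cells in the receptor values was not tested.

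The gamma locus lies on chromosome 13, as does Nfil3, and its 15 listed segments run in the order Trgv7, Trgv4, Trgv6, Trgv5, J1, C1, Trgv3, J3, C3, C2, J2, Trgv2, Trgv1, J4 and C4. Among the 50 tested protein-coding genes nearest to it, 25 on each side, 1 was lower and 0 higher at an unadjusted p under 0.05 (2%), with a median of 0.03. The nearest ones, Stard3nl and Amph, differed by -0.11 and -0.03. The lower one was Gpr141b, the 4th tested gene after the segments, with levels of 4.88, 5.02 and 5.17 on the E4bp4-/- arrays, against 5.29, 5.36 and 5.47 on the E4bp4+/+ arrays. Gpr141b did not overlap between genotypes and differed by -0.36 ± 0.05 (SE), with an adjusted p of 0.109 in limma. Between the gamma locus and Nfil3, 17 of 193 tested genes were lower and 15 higher (16.6%), close to the 14.9% of all clusters. The largest difference among them was that of Cap2, at 0.88. The part of linked sequence in the gamma values was not tested.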

How the data were processed

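RNA of 12 arrays was analysed as log2 levels per transcript cluster of the GeneChip Mouse Gene 1.0 ST Array. Per the series design text, the authors normalized these deposited log2 values with RMA16 in GeneSpring GX version 11; the log2 scale was inferred from their range of 3.18 to 14.33. The sources used here give no probe annotation of theirs. Array medians were 6.50 to 6.62, and RMA would hide a shift of most genes. Names came from the platform annotation (1 gene for 21640 clusters, several for 1321, none for 11799).

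Groups followed the labelled genotype. A cluster was kept when it reached the 20th percentile of at least 1 array (4.93 to 4.99), which removed 5219. Genotypes were compared with limma 3.58.1 in R 4.3.3 without covariates, with Benjamini-Hochberg adjustment over 29541 clusters, and single values also by two-sided exact permutation. Limma was tested on simulated data. Members, gene lists and tests were chosen with earlier results of these data known. Named were Nfil3, the CD3 genes, Ptcra, gamma and delta clusters, the 10 alpha or beta clusters of lowest p and 5 of highest level, the 4 or fewer genes with the smallest p in each list, and Gata3, Icos, Id2, Il2ra, Lck, Zap70, Bcl11b, Rag1, Rag2 and Dntt; lists of natural killer, B, neutrophil and progenitor cells and removed antigens are given by counts. Replicate numbers share no stated origin. Alternatives covered the filter, scaling, variance model, replicate number, omitted arrays and restricted member sets; omitting both arrays numbered 2 and all alternatives for gene lists were chosen after seeing the data. Single-gene clusters chose the neighbours of the gamma locus in a RefSeq table of GRCm38.p6.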

Additional observations from a re-analysis of the deposited data

Results flagged for a closer look

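Within each genotype of 6 arrays, the highest or lowest array of each member and named gene was set against the others, and 15 of 152 sets had an array farther from the rest than Dixon's 95% critical value allows. Chance gives about 7.6. Among members, 6 of 88 sets did so, and 5 of the 15 fell on E4bp4-/- replicate 1.

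Among members, Trgv1 stood at 5.76 on E4bp4-/- replicate 2. Trav14-1 (10414953) stood at 4.30 on E4bp4-/- replicate 4. Cluster 10414751 (Trav3n-3, Trav3-3 and Trav13-5) was low on E4bp4-/- replicate 3, at 4.85, and high on E4bp4+/+ replicate 2, at 5.52. On E4bp4+/+ replicate 4, Trav7n-5 stood at 4.43 and cluster 10414866 at 5.17.

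Among the other genes, E4bp4-/- replicate 1 stood apart for Bcl11b at 6.86, Ptprcap at 9.83, Notch1 at 9.63, Xrcc5 at 8.94 and Flt3 at 10.01. Rag2 stood at 4.44 on E4bp4-/- replicate 3. On E4bp4+/+ replicate 1, Nfil3 stood at 7.67 and Lig4 at 6.41, and on E4bp4+/+ replicate 2 Ccr9 stood at 6.08.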

How the results depend on the processing

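The 3 tested gamma clusters stayed lower at an unadjusted p under 0.05 in limma under every filter, scaling, variance model and omitted array, and the medians of all 3 classes kept their sign. Lower members numbered 4 without the filter, 2 among clusters above the median level and 1 (Trgv1) among clusters with 1 gene. The number of higher members, 10, moved to 6 with the 50th percentile filter, with quantile normalization and among clusters above the median level, and to 4 after centring and among clusters with 1 gene. The 50th percentile filter and the restricted sets left fewer members than the 31 tested, so their counts are not shares of 31. Only 15 of the 44 members name 1 gene, tested or not. Omitting single arrays gave 6 to 10 higher members and 3 lower throughout, class medians of -1.06 to -0.76 (gamma), 0.07 to 0.11 (alpha and beta) and 0.06 to 0.10 (CD3 and Ptcra), and 0 to 4 clusters past the adjusted threshold. The CD3 and Ptcra median was 0.19 with the 50th percentile filter and among clusters above the median level, where only Cd3e is left. Clusters past the adjusted threshold of limma numbered 0 as reported, 5 with array weights and 3 without both arrays numbered 2.

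Differences near 0 turned sign. With single arrays left out, Cd247 ran from -0.0102 (without E4bp4+/+ replicate 6) to 0.055 (without E4bp4+/+ replicate 2), Zap70 from -0.0099 to 0.0521, Dntt from -0.0809 (without E4bp4-/- replicate 1) to 0.218 and Bcl11b from -0.0368 to 0.0159 (without E4bp4-/- replicate 1 and E4bp4+/+ replicate 1). Cd247 was at -0.0214 after quantile normalization and -0.0219 after centring, and Zap70 at -0.0021 and -0.0129. For these changes the cause was not tested.

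With the replicate number as a block, 0 clusters passed the adjusted threshold, 3 members were lower and 8 higher, and the class medians were -0.90, 0.08 and 0.08. The numbers need not pair the samples: deviations of equal numbers correlated at 0.46, 0.03, 0.07, -0.03, 0.18 and 0.17 (numbers 1 to 6), and only numbers 1, 5 and 6 correlated best with their own. Without the filter, cluster 10403816 had an adjusted p of 0.238 and Trdv2-2 of 0.413 in limma. Levels near the 20th percentile limit Cd3g, Cd3d, Trdv2-2 and the E4bp4-/- values of Trgv1 and Gpr141b.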
